A study of Homo sapiens with 8 samples.

Results

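The genes described here encode the core of the mitochondrial route to apoptosis and its brakes. They are APAF1, CASP9, CASP2, CASP6, CASP1, XIAP, BIRC2 and DIABLO, 8 genes of the 58302 in the deposited count table, taken by symbol from a list that names them by function. Of the 4 caspase genes among them, CASP6 alone encodes an executioner caspase. CASP9 and CASP2 encode initiator caspases and CASP1 an inflammatory caspase, so the set is wider than a label of executioner caspases would say.

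RNA was sequenced from HCT116 p53+/+ cells, an established human colon cancer line with wild-type p53, after 24 hours with 1 µM MANIO, a compound named here only by its code, or with its solvent DMSO. Each group held 4 libraries, described as biological replicates, all of this line. Nothing says that they came from separate days or passages, so the p-values measure the spread between these samples, part of which may be technical. The series asks whether the compound switches on p53, a transcription factor whose reported target genes include APAF1, CASP6 and CASP1.

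As background, cytochrome c that leaves the mitochondria binds APAF1, which assembles with other APAF1 molecules into the apoptosome. The apoptosome recruits and activates caspase 9, which passes the signal on to executioner caspases. Caspase 6 is an executioner that cleaves targets such as the nuclear lamins. XIAP binds and blocks caspases, caspase 9 among them, and BIRC2 encodes cIAP1, a ubiquitin ligase of the same inhibitor of apoptosis protein (IAP) family that acts mainly in death receptor and NF-kB signalling. DIABLO encodes SMAC, a mitochondrial protein that is released with cytochrome c and displaces caspases from the IAPs.

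The promoter sequences of the gene that rose most and of the gene that fell most among the 8 are shown first, since the study concerns a transcription factor and these genes moved in opposite directions. Both are RefSeq sequences of build GRCh38.p14 and cover the 250 bases before the most upstream RefSeq transcript start. GC boxes, the letters GGGCGG or CCGCCC on the strand shown, are in capitals, and boxes that overlap run together. APAF1 lies on the plus strand, chr12:98645040-98645289, and CASP9 on the minus strand, chr1:15524791-15525040.
APAF1: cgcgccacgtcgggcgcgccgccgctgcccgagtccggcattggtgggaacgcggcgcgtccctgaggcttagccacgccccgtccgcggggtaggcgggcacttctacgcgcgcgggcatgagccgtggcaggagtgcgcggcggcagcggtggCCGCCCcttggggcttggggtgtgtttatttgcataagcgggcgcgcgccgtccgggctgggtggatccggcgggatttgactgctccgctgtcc
CASP9: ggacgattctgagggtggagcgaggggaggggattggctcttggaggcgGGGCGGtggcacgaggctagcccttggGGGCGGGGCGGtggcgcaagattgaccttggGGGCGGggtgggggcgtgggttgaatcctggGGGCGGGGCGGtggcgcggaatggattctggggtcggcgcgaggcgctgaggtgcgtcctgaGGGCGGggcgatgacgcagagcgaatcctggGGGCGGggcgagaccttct

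The APAF1 window held 1 GC box and the CASP9 window 8. Windows of the other genes held 3 for CASP6, 0 or 4 for CASP2 and 1 or 2 for DIABLO. Those of XIAP held 0 to 2 and those of BIRC2 0 or 1. A link between the number of boxes and the direction of change was not tested. Among 35116 RefSeq promoter windows, 42.6% held at least 1 GC box and 0.584% held at least 8. The same windows, extended by 50 bases past the start, were searched for the p53 consensus, a 20-base pair of decameric half-sites without a spacer, which reads the same on both strands. RefSeq windows were at hand for 7 of the 8 genes, all but CASP1, and their 15 windows had 4 to 7 mismatches at best, where the median over all windows was 5. For comparison, a downstream start of MDM2, a textbook p53 target, had a match with 2 mismatches at chr12:68808923-68808942 on the plus strand, shown here with the central letters of each half-site in capitals.
MDM2: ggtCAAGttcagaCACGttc
Only 0.649% of all windows came that close. The window of CDKN1A, another textbook target, had 5 mismatches at best, so the search of these short windows says nothing of p53 sites further away.

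Of 7 colon epithelial markers 6 were tested, and the 7 summed to between 4135 and 4636 CPM in MANIO libraries and between 3350 and 3622 CPM in DMSO libraries, where CPM is counts scaled to library size with edgeR's TMM factors. Most of it came from the keratin genes KRT8, KRT18 and KRT19, with means of 2103, 938 and 981 CPM in MANIO. CDX2 averaged 18.3 CPM in MANIO and 15.7 CPM in DMSO. VIL1, the marker not tested, averaged 0.205 CPM in MANIO and 0.062 CPM in DMSO. The 5 leukocyte markers summed to at most 0.443 CPM in MANIO and 0.223 CPM in DMSO libraries. Of the 5 fibroblast markers, COL1A1 alone passed the filter on low counts, at 42.2 CPM in MANIO and 22.9 CPM in DMSO libraries, while LUM was at 0 throughout. The 3 endothelial markers summed to between 0.222 and 0.475 CPM in MANIO libraries and between 0.700 and 1.101 CPM in DMSO libraries, most of it VWF. CDKN1A, the p21 gene, had a log2 fold change of 2.43 and MDM2 one of 1.85. DMSO replicate 1 stood apart, with 7.48% of its counts in mitochondrially encoded genes, against 4.82% to 5.21% in the other DMSO libraries and 6.70% to 7.62% in MANIO libraries. The part of the mitochondrial share in the results below was not tested. Without DMSO replicate 1 the log2 fold change was 0.59 for APAF1 and -0.42 for CASP9, and the values of CASP6, XIAP, CASP2, BIRC2 and DIABLO without it were -0.11, 0.14, -0.051, 0.16 and 0.37.

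Of the 8 genes, 7 passed the filter on low counts and 3 of these 7 changed, APAF1 and DIABLO upward and CASP9 downward. Across all 15712 tested genes 54.6% were called by the same test, edgeR's quasi-likelihood test at a Benjamini-Hochberg adjusted p under 0.05, with 27.8% higher and 26.8% lower in MANIO. The share of 3 in 7 (42.9%) is thus near the background of the whole transcriptome. The median log2 fold change of the 7 genes was 0.10 and that of all tested genes 0.00429. In 3 of the 7 the groups did not overlap, against 48.3% of all tested genes. Levels are relative to each library's TMM-scaled size, so a change in total RNA per cell would not be seen. Each library pools the RNA of many cells. A change in a transcript's level per cell and a change in the number of cells that carry it therefore cannot be told apart.

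**Figure D1:**
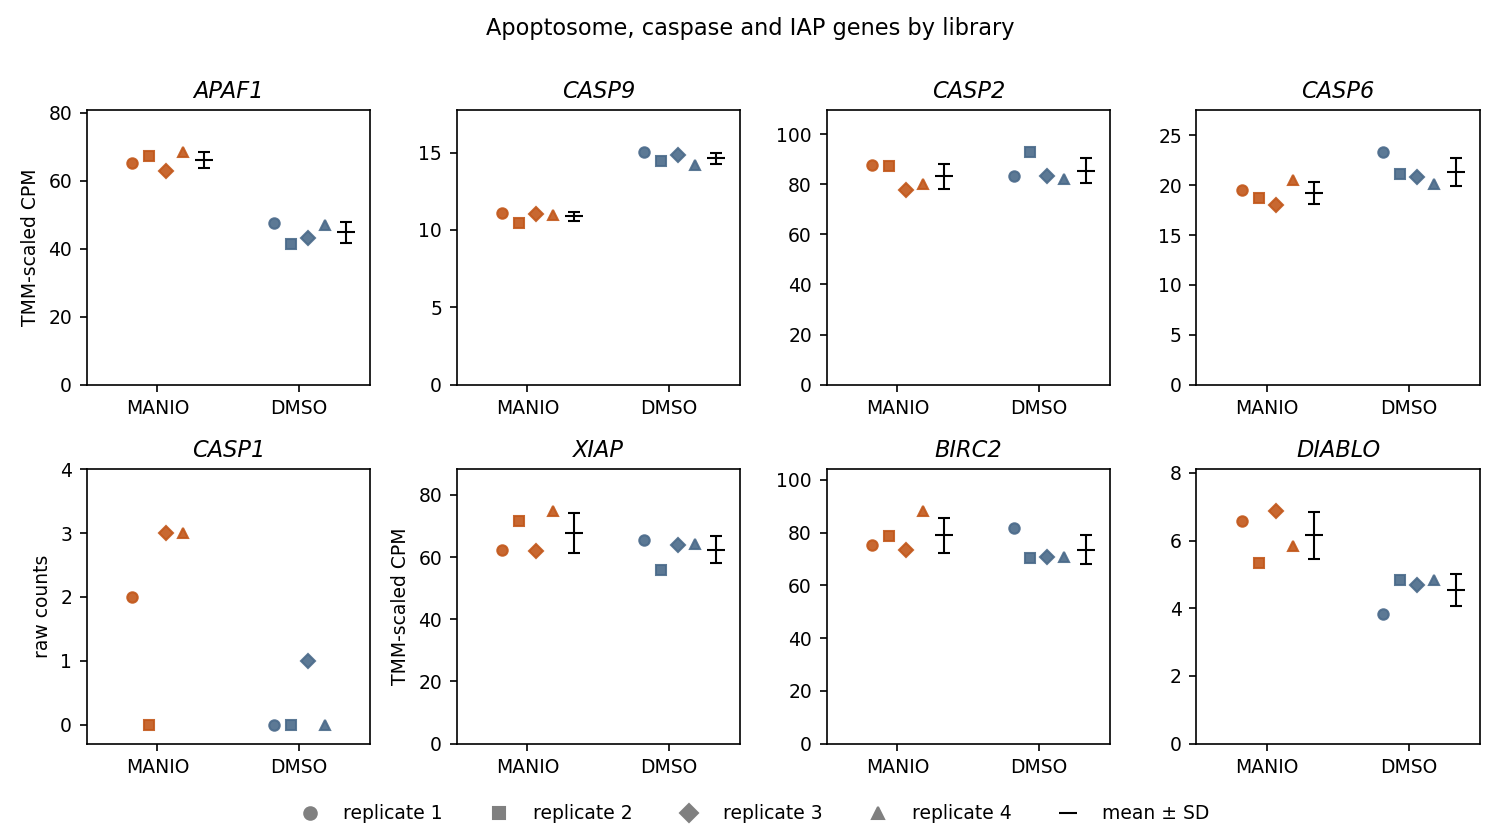
Level of each gene in every library, as TMM-scaled CPM on axes that start at 0, with raw counts for CASP1; symbols mark the replicate and black bars the mean ± SD of 4 libraries. APAF1 and DIABLO lay higher and CASP9 lower in all 4 MANIO libraries than in any DMSO library, while the other genes overlapped.

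APAF1, the scaffold of the apoptosome, rose. It had 65.3, 67.3, 63.0 and 68.4 CPM in MANIO replicates 1 to 4, against 47.6, 41.4, 43.2 and 47.1 CPM in DMSO replicates 1 to 4. Every MANIO library stood well above every DMSO library, and the spread within each group was small beside the gap. The means were 66.0 ± 2.40 CPM in MANIO and 44.8 ± 3.01 CPM in DMSO (SD, n = 4 each), a 1.47-fold rise. In edgeR's quasi-likelihood test the log2 fold change was 0.56 (SE 0.0599, 95% interval 0.43 to 0.69) with a Benjamini-Hochberg adjusted p of 1.86e-06. A total of 87.6% of all tested genes had a smaller log2 fold change. The gene (ENSG00000120868) lies on chromosome 12 at 98645141 to 98735433 of GRCh38 and spans 90.3 kb. It shares 9.48% of its exonic bases with ANKS1B on the other strand, which had 9 counts in all 8 libraries together.

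CASP9, whose product is the caspase that the apoptosome activates, fell. Its levels were 11.1, 10.5, 11.0 and 11.0 CPM in MANIO replicates 1 to 4, against 15.0, 14.5, 14.8 and 14.2 CPM in DMSO replicates 1 to 4. The groups did not overlap, and the values within each group lay close together. Means of 10.9 ± 0.296 CPM in MANIO and 14.6 ± 0.366 CPM in DMSO (SD, n = 4 each) gave a log2 fold change of -0.43 (SE 0.0662, 95% interval -0.57 to -0.29). The adjusted p in edgeR's quasi-likelihood test was 6.79e-05, and 12.5% of all tested genes had a smaller log2 fold change. CASP9 (ENSG00000132906) lies on chromosome 1 at 15490832 to 15526534. The 2 components of the apoptosome thus moved in opposite directions. CYCS, the gene of cytochrome c, did not pass the test, with 283 ± 35.8 CPM in MANIO and 277 ± 23.9 CPM in DMSO (SD, n = 4 each) and a log2 fold change of 0.03.

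CASP2, an initiator caspase activated on a platform of its own, the PIDDosome, did not pass the test. It had 87.6, 87.5, 77.6 and 80.1 CPM in MANIO replicates 1 to 4, against 83.4, 92.9, 83.4 and 82.0 CPM in DMSO replicates 1 to 4. The groups overlapped, and the highest value belonged to DMSO replicate 2. The log2 fold change was -0.04 (95% interval -0.17 to 0.09; edgeR adjusted p = 0.619), and without DMSO replicate 2 it was 0.0033, so it has no settled sign. The CASP2 gene (ENSG00000106144) lies on chromosome 7 at 143288215 to 143307696.

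The genes of the other PIDDosome parts did change. PIDD1, which encodes the scaffold and is a reported p53 target, had 107 ± 11.5 CPM in MANIO and 46.4 ± 7.25 CPM in DMSO (SD, n = 4 each), a 2.30-fold rise with an adjusted p of 1.90e-06 in edgeR's quasi-likelihood test. CRADD, the adaptor between PIDD1 and caspase 2, averaged 7.23 CPM in MANIO and 9.96 CPM in DMSO libraries and fell by 0.46 on the log2 scale (edgeR adjusted p = 0.00209).

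CASP6, the executioner caspase gene of the set, lay slightly lower in MANIO but missed the threshold. Its levels were 19.5, 18.7, 18.0 and 20.6 CPM in MANIO replicates 1 to 4, against 23.3, 21.1, 20.8 and 20.1 CPM in DMSO replicates 1 to 4. All 4 MANIO values were under the DMSO mean, yet MANIO replicate 4 exceeded DMSO replicate 4. The log2 fold change was -0.15 (95% interval -0.30 to -0.0072; edgeR adjusted p = 0.0706). Without MANIO replicate 4 it was -0.19 with an edgeR adjusted p of 0.0353, a call that rests on leaving out that library. CASP6 (ENSG00000138794) lies on chromosome 4 at 109688622 to 109703583 and shares 5.40% of its exonic bases with MCUB on the other strand. MCUB had a log2 fold change of -0.87, and since the kit does not mark strand its part in the CASP6 count was not tested.

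CASP1, the caspase of the inflammasome, was close to absent. It had 2, 0, 3 and 3 counts in MANIO replicates 1 to 4, against 0, 0, 1 and 0 counts in DMSO replicates 1 to 4. No library exceeded 3 counts, the level that a count of 0 allows, so no fold change is given, and a difference between the groups was not detectable at this depth. CASP1 (ENSG00000137752) lies on chromosome 11 at 105025443 to 105035250. Its neighbour CASP4, an inflammatory caspase gene that senses bacterial lipid, was expressed and rose (43.8 ± 2.66 CPM in MANIO, 33.1 ± 1.76 CPM in DMSO; SD, n = 4 each), with a log2 fold change of 0.41 and an edgeR adjusted p of 7.02e-05. PYCARD, the adaptor gene between inflammasome sensors and caspase 1, had a mean of 0 CPM in MANIO and 0.0093 CPM in DMSO libraries, but 59.7% of its exonic bases are shared with other annotated genes, so this low count is uncertain.

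XIAP, the caspase inhibitor gene, did not pass the test. It had 62.4, 71.7, 62.0 and 74.8 CPM in MANIO replicates 1 to 4, against 65.6, 56.0, 64.0 and 64.1 CPM in DMSO replicates 1 to 4. MANIO replicates 2 and 4 were the highest of the 8, and MANIO replicates 1 and 3 lay among the DMSO values. The log2 fold change was 0.12 (95% interval -0.037 to 0.27; edgeR adjusted p = 0.185). XIAP (ENSG00000101966) lies on chromosome X at 123859724 to 123913979. Its 3 annotated pseudogenes had 11 counts in the MANIO libraries and 2 in the DMSO libraries, against 1603 or more for XIAP in every library. The sources used here do not give how reads that match several places were counted.

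BIRC2, the gene of cIAP1, did not pass either. It had 75.2, 78.9, 73.4 and 88.1 CPM in MANIO replicates 1 to 4, against 81.7, 70.3, 70.9 and 70.9 CPM in DMSO replicates 1 to 4. DMSO replicate 1 stood above 3 of the 4 MANIO libraries, while the other DMSO libraries stood below all of them. The log2 fold change was 0.10 (95% interval -0.041 to 0.25; edgeR adjusted p = 0.212) and 0.16 without DMSO replicate 1 (edgeR adjusted p = 0.0518). BIRC2 (ENSG00000110330) lies on chromosome 11 at 102347211 to 102378670.

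DIABLO, the gene of the IAP antagonist SMAC, rose at a low measured level. It had 208, 175, 217 and 174 counts in MANIO replicates 1 to 4, against 103, 138, 147 and 136 counts in DMSO replicates 1 to 4, which corresponds to 6.59, 5.33, 6.87 and 5.85 CPM in MANIO and 3.83, 4.82, 4.68 and 4.83 CPM in DMSO. The groups did not overlap, and DMSO replicate 1 was the lowest of all. Means of 6.16 ± 0.697 CPM in MANIO and 4.54 ± 0.478 CPM in DMSO (SD, n = 4 each) gave a log2 fold change of 0.44 (SE 0.110, 95% interval 0.20 to 0.67; edgeR adjusted p = 0.00353). Without DMSO replicate 1 it was 0.37 with an edgeR adjusted p of 0.0105.

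The DIABLO count is uncertain. The gene (ENSG00000184047, chromosome 12 at 122207663 to 122226568) shares 30.4% of its exonic bases with other genes in GENCODE release 29. As shares of all its exonic bases, 16.8% are shared with a gene on the same strand, ENSG00000256861, which had 0 counts in all 8 libraries, and 14.3% with B3GNT4 on the other strand. These shares overlap each other. A second identifier named DIABLO in that release, ENSG00000284934, shares 29.6% and was not analysed here. B3GNT4 had 4.63 ± 0.318 CPM in MANIO and 5.57 ± 0.786 CPM in DMSO (SD, n = 4 each), a log2 fold change of -0.27 that did not pass the test. The sources used here do not give how reads over shared bases were counted.

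Levels between genes were compared per kilobase of merged exons. BIRC2 stood highest, at 17.4 ± 1.44 CPM per kb in MANIO and 16.2 ± 1.21 CPM per kb in DMSO (SD, n = 4 each). CASP2 and CASP6 followed, with ranges that overlapped each other in both groups, at 10.4 ± 0.638 and 9.88 ± 0.559 CPM per kb in MANIO, and 10.7 ± 0.627 and 11.0 ± 0.714 CPM per kb in DMSO. APAF1 had 8.35 ± 0.304 CPM per kb in MANIO and 5.67 ± 0.381 in DMSO, while XIAP had 7.50 ± 0.719 CPM per kb in MANIO and 6.92 ± 0.481 in DMSO. The ranges of APAF1 and XIAP overlapped in MANIO, whereas in DMSO every APAF1 value lay under every XIAP value. CASP9 had 2.07 ± 0.0561 CPM per kb in MANIO and 2.78 ± 0.0695 in DMSO, and DIABLO had 0.910 ± 0.103 CPM per kb in MANIO and 0.670 ± 0.0705 in DMSO. This order depends on the length used: per kilobase of the longest coding sequence, CASP2 came first with 61.4 ± 3.77 CPM per coding kb in MANIO and 63.0 ± 3.71 in DMSO, ahead of XIAP with 45.4 ± 4.35 in MANIO and 41.9 ± 2.91 in DMSO. By that length APAF1 had 17.6 CPM per coding kb in MANIO, far under XIAP. CASP9 and DIABLO were nearly equal in MANIO by that length, at 8.62 and 8.59, and had 11.6 and 6.33 in DMSO. The DIABLO level also carries the uncertainty of its shared exons.

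**Figure D2:**
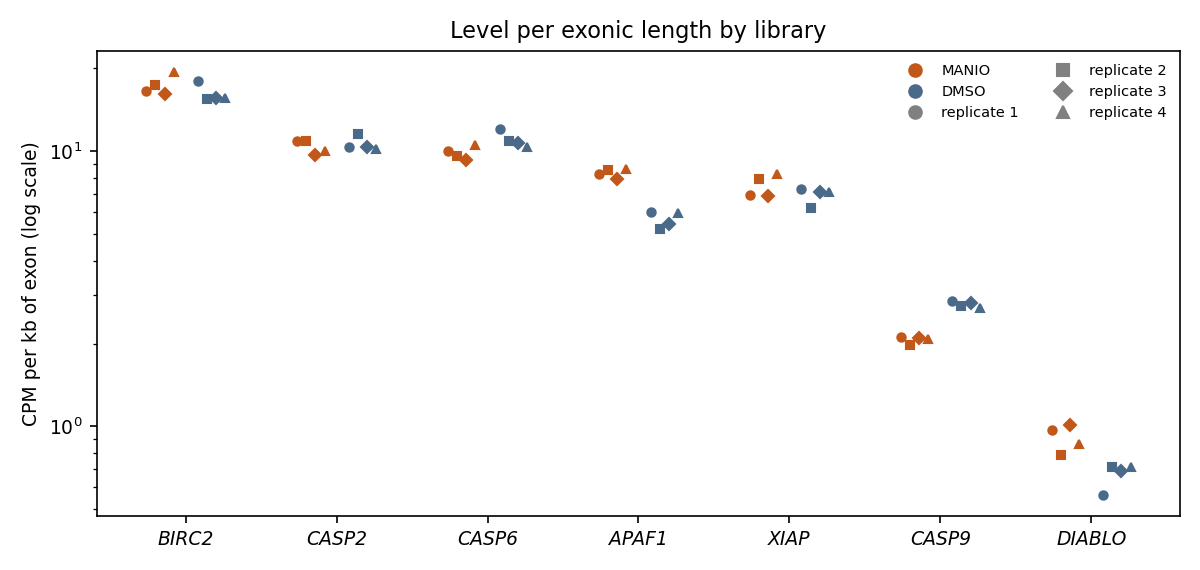
Level per kilobase of merged exons on a log axis, in CPM per kb, for the 7 tested genes in the 4 MANIO libraries (left of each pair) and the 4 DMSO libraries (right). BIRC2 was highest and DIABLO lowest in both groups, and APAF1 values overlapped those of XIAP in MANIO but lay below them in DMSO. The order changes with the length used, and the DIABLO count is uncertain because of shared exons.

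Ratios between 2 genes of the same library do not depend on how libraries are scaled. They are given as counts per exonic base of the first gene over the second, as a description. Their values depend on the length used, while the MANIO over DMSO change of a 2-gene ratio does not. Per coding kb, CASP6 lay under XIAP, at 21.8 against 45.4 CPM in MANIO and 24.3 against 41.9 CPM in DMSO. APAF1 over CASP9 was 3.91, 4.29, 3.81 and 4.16 in MANIO replicates 1 to 4, against 2.11, 1.91, 1.94 and 2.21 in DMSO replicates 1 to 4. This ratio was 1.98-fold higher in MANIO, and the groups were far apart, which follows from the rise of APAF1 and the fall of CASP9. CASP9 over XIAP averaged 0.278 ± 0.0313 in MANIO and 0.403 ± 0.0273 in DMSO, and CASP6 over XIAP 1.32 ± 0.103 in MANIO and 1.59 ± 0.133 in DMSO (SD, n = 4 each). Neither of these overlapped between groups, although for CASP6 over XIAP the highest MANIO value, 1.45, nearly met the lowest DMSO value, 1.46. DIABLO over XIAP averaged 0.123 ± 0.0247 in MANIO and 0.0976 ± 0.0152 in DMSO and overlapped, since MANIO replicates 2 and 4 had values of 0.0992 and 0.104, below 0.115 in DMSO replicate 2. Set against the sum of XIAP and BIRC2, DIABLO averaged 0.0369 ± 0.00674 in MANIO and 0.0292 ± 0.00468 in DMSO and overlapped as well. The log2 change of this last ratio was 0.33, and 0.21 without DMSO replicate 1.

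**Figure D3:**
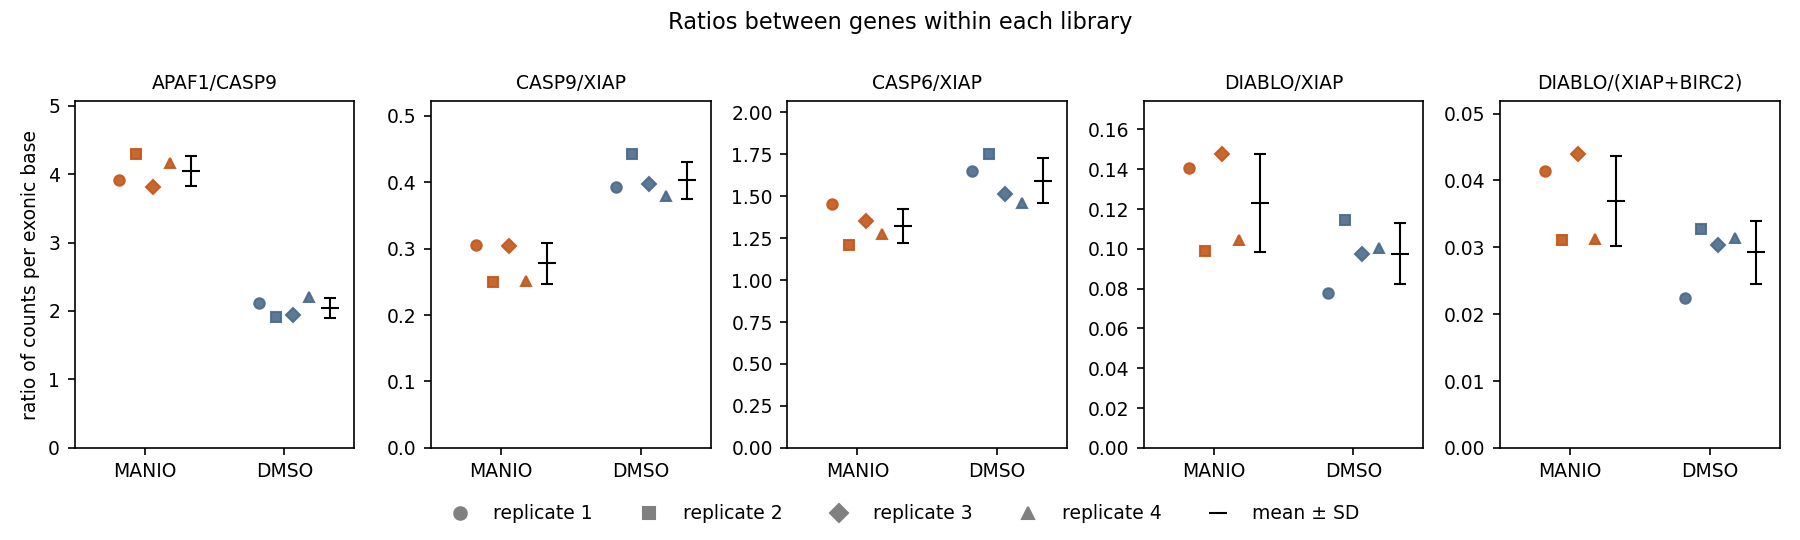
Ratios of counts per exonic base between genes of the same library, on axes that start at 0, with symbols for replicates and black bars for the mean ± SD of 4 libraries. APAF1/CASP9 was 3.81 to 4.29 in MANIO and 1.91 to 2.21 in DMSO libraries, while the DIABLO ratios overlapped.

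The genes around the 8 were taken from 6 lists of 57 genes in all, of which 49 were tested. By edgeR's quasi-likelihood test 13 rose and 16 fell, and the median log2 fold change was -0.0022. The 29 called are 59.2% of those tested, near the 54.6% of all genes.

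The 3 other caspase genes tested and reported here, CASP4, CASP8 and CASP10, all rose, with a median log2 fold change of 0.45. Of all tested genes, 54.6% were called and 27.8% rose. Some genes of this list are not reported here, so these 3 do not stand for the whole list. The initiator gene CASP8, which acts at death receptors, had 66.8 ± 3.21 CPM in MANIO and 48.9 ± 1.60 CPM in DMSO (SD, n = 4 each) and rose by 0.45 on the log2 scale (edgeR adjusted p = 7.78e-06). Its relative CASP10, a reported p53 target, rose by 0.59.

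Of 9 tested genes of caspase-activating platforms and their regulators, 2 rose and 3 fell. This is 55.6% called, near the 54.6% of all tested genes. NLRP1, an inflammasome sensor gene, rose most, with 27.2 ± 2.15 CPM in MANIO and 9.90 ± 1.12 CPM in DMSO (SD, n = 4 each) and a rise of 1.46 on the log2 scale (edgeR adjusted p = 4.23e-09). ANP32A, whose product promotes apoptosome activity in cell extracts, fell by 0.55 (edgeR adjusted p = 1.63e-07). UACA, reported to assist APAF1, fell by 0.36.

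Of 9 tested genes of other IAPs and IAP antagonists, 3 rose and 2 fell, again 55.6% called against 54.6% of all tested genes. BIRC5, the survivin gene, fell by 0.46 on the log2 scale (edgeR adjusted p = 1.16e-06). BIRC7, the gene of livin, had a log2 fold change of 2.12 but only 0.843 ± 0.0520 CPM in MANIO and 0.193 ± 0.0869 CPM in DMSO (SD, n = 4 each; edgeR adjusted p = 1.48e-05). BIRC3, the gene of cIAP2, which lies next to BIRC2, had a log2 fold change of 0.45, and the giant IAP gene BIRC6 one of 0.29. The antagonist gene HTRA2 had a log2 fold change of 0.01 and did not pass.

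Of 9 tested IAP signalling partners, 1 rose and 4 fell, with 55.6% called against 54.6% of all tested genes. The gene that rose was MAP3K14, the NF-kB inducing kinase that cIAP1 helps degrade (0.34; edgeR adjusted p = 0.00165), and among those that fell was the ubiquitin-conjugating enzyme gene UBE2D3 (-0.24; edgeR adjusted p = 8.29e-04). TRAF2, the adaptor that binds cIAP1, fell by 0.28 and TAB1, a partner of XIAP, by 0.24. Of 15 tested caspase substrates, 4 rose and 4 fell (53.3% called). The nuclear lamin gene LMNB1 fell by 0.75 while LMNA, whose product caspase 6 cleaves, rose by 0.39. DFFA, the gene of the inhibitor that caspases remove from the apoptotic nuclease, rose by 0.35, and DFFB, the gene of that nuclease, fell by 0.23. VIM fell by 1.71 at a low level (0.982 ± 0.151 CPM in MANIO, 3.21 ± 0.478 CPM in DMSO; SD, n = 4 each), with 24.4% of its exonic bases shared with other annotated genes, as are 12.3% of those of MAP3K14, 10.1% of those of DFFA and 36.9% of those of HTRA2. Of 4 mitochondrial effector genes 75.0% were called, against 54.6% of all tested genes, of which 26.8% fell. In this short list 0 rose and 3 fell. They were AIFM1, the gene of apoptosis-inducing factor, by 0.25, the protease gene CLPP by 0.27 and OPA1 by 0.15. The OPA1 value was close to the threshold (edgeR adjusted p = 0.0449). Of the 4, AIFM1 alone had groups that did not overlap, against 48.3% of all tested genes.

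**Figure D4:**
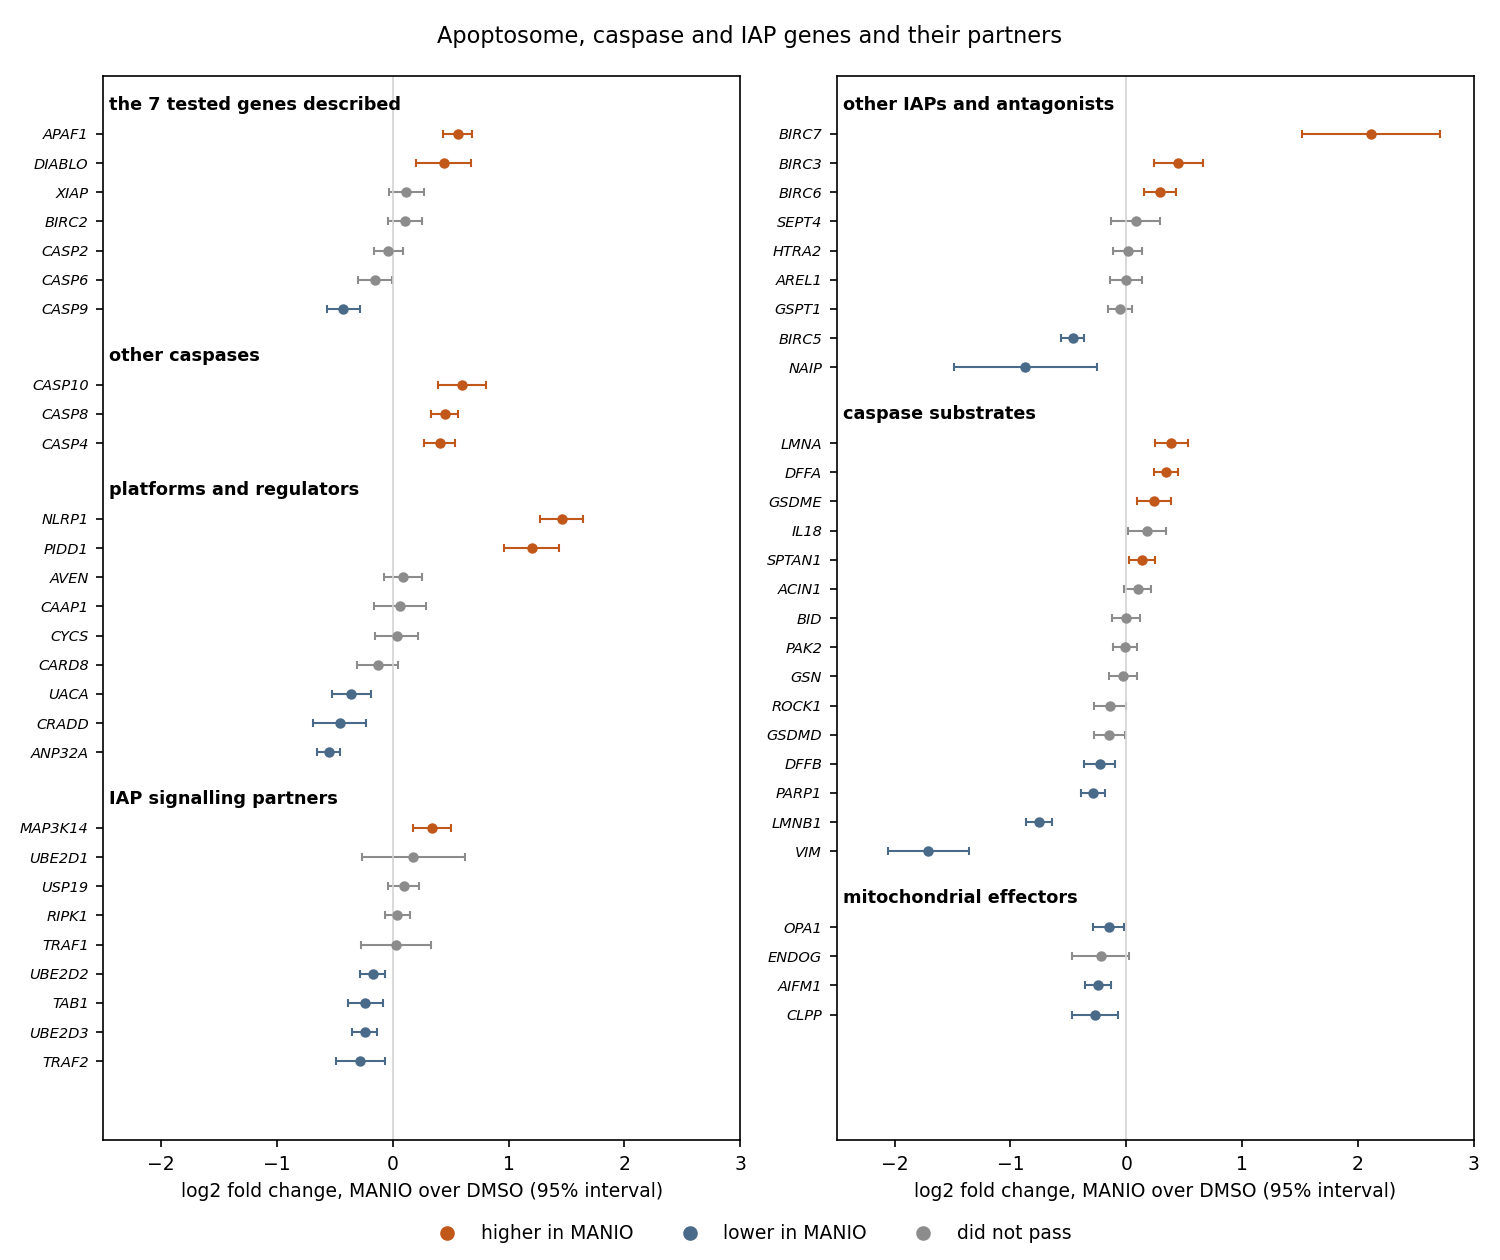
Log2 fold change, MANIO over DMSO, with 95% intervals from edgeR's quasi-likelihood fit, for the 7 tested genes described and 49 genes of 6 partner lists. Orange marks genes that rose, blue genes that fell and grey those that did not pass; APAF1 (0.56) and CASP9 (-0.43) lie on opposite sides of 0.

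Against a limit of 1.2-fold, edgeR's glmTreat called 26.3% of all tested genes, and of the 7 it called APAF1 and CASP9 but not DIABLO (edgeR adjusted p = 0.0711).

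The tested genes whose centred log2 CPM profile over the 8 libraries lay nearest were looked up for the 2 genes with the highest log2 fold changes, APAF1 and DIABLO, and the 2 with the lowest, CASP9 and CASP6, of which CASP6 did not pass the test. Likeness was measured by the root-mean-square (RMS) difference. For APAF1 they were JMY and GPATCH2L, with RMS differences of 0.0324 and 0.0354 on the log2 scale. For DIABLO they were POLM (0.0520) and OSR2 (0.0566), for CASP9 TSPAN15 (0.0259) and BCOR (0.0269), and for CASP6 WDR12 (0.0240) and SF3B1 (0.0248). These distances describe 8 libraries that share 1 treatment contrast.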

How the data were processed

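The authors deposited raw read counts per Ensembl gene, whole numbers for 58302 genes in 8 libraries. Per the submitters' processing notes, FastQC 1.3, STAR 2.5.3a, HTSeq and DESeq2 and build GRCh38 were used; the sources used here do not give their roles or the annotation release. Libraries were made with the TruSeq RNA kit, version 2, per the labels' protocols. Total counts ranged from 27945196 to 32509020 per library. In R 4.3.3, edgeR 4.0.16 (filterByExpr, TMM, robust quasi-likelihood test of group alone) was fitted on all 15712 genes kept, with Benjamini-Hochberg adjustment over all of them. The 95% intervals use the SE from the F statistic and its degrees of freedom. Alternatives used DESeq2 1.42.0, limma 3.58.1, other scalings and left-out libraries. Spans, exon lengths and overlaps come from GENCODE release 29, which holds 58039 of the identifiers, and promoters from RefSeq. On simulated counts the test made somewhat more false calls than its threshold allows. It missed most changes of 1.2-fold and part of those of 1.5-fold. The simulation changed 50 genes at each fold, a far smaller share than the 54.6% called in the data. These rates therefore do not carry over directly to the data. Libraries of a group differed by 3.60 to 24.4 times the sampling noise, so none was a copy. Named beside the 8 genes were CDKN1A, MDM2, partner genes of smallest p and nearest profiles; others, chosen after their values were seen, were named for their role. The 8 genes and all lists were chosen with earlier results of these data known. NOL3, on a partner list, was not analysed here, and some genes of the caspase list are not reported here, so that list and the counts over all lists are without them.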

Additional observations from a re-analysis of the deposited data

Results flagged for a closer look

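In 58 groups of 4 libraries, the highest or lowest value was set against the others by Dixon's gap test, which flags about 1 in 20 groups by chance. DMSO replicate 1 was far from its group in 3 measures: it had 3.83 CPM of DIABLO, 81.7 CPM of BIRC2 and a mitochondrial share of 7.48%. DMSO replicate 2 was high for CASP2, at 92.9 CPM. Among the partner genes in these groups, CASP4 was low in DMSO replicate 3, at 30.4 CPM, and CLPP low in MANIO replicate 4, at 29.5 CPM. The groups did not cover every partner gene, so the list of flagged values is not complete for them. Whether CLPP is still called without MANIO replicate 4 is not given here. The calls of APAF1, DIABLO and CASP9 held without any 1 of these libraries.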

How the results depend on the processing

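APAF1 and CASP9 kept direction and call in all 15 alternatives (0.52 to 0.59 and -0.44 to -0.41 on the log2 scale). DIABLO kept its call in 14 (0.37 to 0.50) and lost it against a 1.2-fold limit (0.44, edgeR adjusted p = 0.0711). That limit also left 4132 of 8574 called genes (2302 higher, 1830 lower) and 13 of 29 partner genes. Leaving out 1 library in turn gave 7818 to 8622 called genes, 3 to 4 of the 7 tested genes of the set and 25 to 29 partner genes. The ranges were -0.062 to 0.0033 for CASP2, reversed without DMSO replicate 2, and -0.19 to -0.11 for CASP6, called without MANIO replicate 4 (-0.19, edgeR adjusted p = 0.0353). They were 0.067 to 0.16 for XIAP, 0.049 to 0.16 for BIRC2 and 0.37 to 0.50 for DIABLO. For the log2 change of the within-library ratios they were 0.95 to 1.02 for APAF1/CASP9, -0.59 to -0.49 for CASP9/XIAP, -0.31 to -0.22 for CASP6/XIAP, 0.22 to 0.42 for DIABLO/XIAP and 0.21 to 0.41 for DIABLO over the sum of XIAP and BIRC2. The cause of these shifts was not tested. Same-numbered libraries had correlated deviations in 2 of 4 pairs only (0.0385 to 0.163, with a limit of 0.1). Of the 4 MANIO libraries, 1 correlated best with its own number. The main test took no pairing, and correlations this weak cannot show whether the samples were paired. With the replicate block 8845 genes were called, and 3 of the 7, with log2 fold changes of 0.56 for APAF1, 0.44 for DIABLO and -0.43 for CASP9. The coding length of the RefSeq protein was not run as a length unit; the longest GENCODE coding length, chosen after seeing the data, leaves the MANIO over DMSO change of a 2-gene ratio as it was. Low counts limit CASP1 and, with shared exons, DIABLO.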
